A study of Mus musculus with 15 samples.

Results

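The sham arrays of this series gave a picture of the mouse ventricle without imposed pressure overload: 9 of the 15 arrays, chosen by their labels alone, with no measured value used in the choice. Each array measured total RNA of the left ventricle. Of the 9, 3 were labelled as sham controls from females (female sham 1 to 3) and 6 as sham controls from males (male sham 4 to 9), and the numbers are those of the sample titles. The labels give no strain, age, genotype or time after operation, and they do not state that each array came from its own animal, so the spread and the p-values below measure differences between these samples, which may be partly technical. The other 6 arrays, from hearts under pressure overload, were not used here.

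A ventricular cardiomyocyte is filled with sarcomeres, the repeating units in which myosin thick filaments pull on actin thin filaments under the control of the troponin complex and calcium. It draws nearly all of its energy from mitochondria, which burn mainly fatty acids, and it stores oxygen on myoglobin and buffers ATP with creatine kinase. Cardiomyocytes fill most of the ventricle's volume, and endothelial cells, fibroblasts, pericytes and macrophages lie between them.

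Each value is the intensity of a probe set, a group of short DNA probes for 1 transcript or transcript family, in linear, arbitrary units. After 66 control probe sets were set aside, 12422 probe sets remained, of which 10833 were paired with 1 gene symbol, 396 with several and 1193 with none. Brightness depends on the probes as well as on the RNA, so ranks and shares describe signal on the array and not numbers of transcripts. Values below 20, which made up 42.6% to 45.2% of each array, were treated as background.

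The 9 arrays lay close together, and some stood apart in parts of the data. Pairs of arrays had a Pearson correlation of log2 intensity between 0.936 and 0.963 over 7066 probe sets, and the closest pair shared 1 identical non-zero value, so no array was a copy of another. Male sham 7 had the lowest mean correlation with the other arrays (0.942), the lowest median intensity (23.7, against 24.5 to 26.4 elsewhere) and the lowest signal of the Cre control transcript (3743, against 4512 to 5637). Male sham 4 had 10 probe sets and male sham 9 had 7 that lay at least 2 log2 units from the median of the other arrays, and the 3 farthest departures in the data were all on male sham 9. Several results that rest on 1 of these arrays are given with and without it.

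The brightest signals were those of the contractile apparatus and of mitochondria. Myl2, the regulatory light chain of ventricular myosin, had the brightest probe set, with a mean intensity of 6828 ± 289 (SD, n = 9). Actc1, cardiac alpha-actin, followed at 5873 ± 371, and Myh6, the fast myosin heavy chain of the adult mouse ventricle, at 5311 ± 425. Tnnt2, the troponin subunit that binds tropomyosin, ranked 10 among named genes at 3553 ± 386, and Fabp3, the fatty acid carrier of heart muscle cytosol, ranked 14 at 2908 ± 150. These genes other than Myl2 are the markers by which the label was checked, and all were among the 100 brightest probe sets. They check for heart muscle and do not tell ventricle from atrium. Of 12 measured marker genes of ventricular cardiomyocytes, 11 had a mean of at least 100 and 10 were among the 100 brightest genes.

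The order at the top was stable from array to array. Myl2 read 6709, 7322 and 7125 on the female arrays and 6488, 6634 and 7060 as the lowest, median and highest of the male arrays. It was the brightest probe set on 9 of 9 arrays. Actc1 ranked 2 on 8 arrays and 3 on male sham 7, and Myh6 ranked between 2 and 5. On each single array, 91 to 97 of its 100 brightest probe sets were among the 100 brightest by mean.

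**Figure D1:**
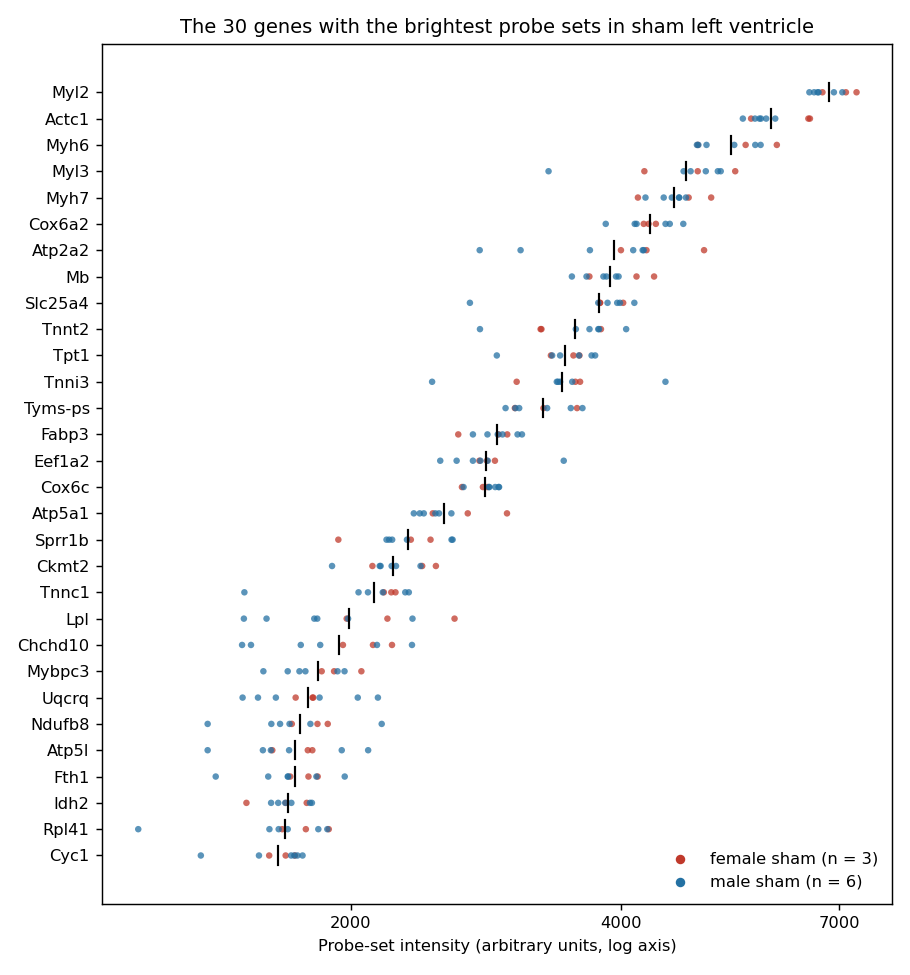
Probe-set intensity (arbitrary units, log axis) of the 30 named genes with the brightest probe sets. Each dot is 1 array (red for 3 female, blue for 6 male sham arrays) and each black tick the mean of 9. Myl2, Actc1 and Myh6 lead, and male sham 7 is the low blue dot for Myl3 (3323), Slc25a4 (2716), Tnnt2 (2787), Tnnc1 (1523) and Rpl41 (1160).

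Sarcomere genes filled much of this top group. The essential light chain gene Myl3 had a mean of 4729 ± 617, and Tnni3, the inhibitory troponin subunit, 3437 ± 529. Tnnc1, the calcium-binding troponin subunit, read 2121 ± 242 and Mybpc3, which links thick and thin filaments, 1841 ± 144. Of the 28 sarcomere and Z-disc genes measured, 21 had a mean of at least 100, 12 ranked among the 100 brightest genes, and Actn2, the Z-disc alpha-actinin, was below 20 on all 9 arrays. A probe set named for Myh7, the slow myosin heavy chain, read 4587 ± 263, whereas the second Myh7 probe set averaged 24.7. The bright one carries the suffix that marks probes shared within a gene family, so its signal cannot be divided between myosin heavy chain genes.

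Genes of the respiratory chain and ATP synthase were the most numerous named group among the 100 brightest probe sets, with 24 of them, against 11 of the sarcomere, 5 of fatty acid use and 4 of calcium cycling. Cox6a2, the muscle form of a cytochrome c oxidase subunit, had a mean of 4310 ± 250, and a family probe set of Cox6c, another subunit of the same enzyme, 2826 ± 98.5, whereas the further probe sets of Cox6c averaged 8.04 and 33.0. Atp5a1, the catalytic-core alpha subunit of ATP synthase, read 2544 ± 197. Of the 73 genes listed for oxidative phosphorylation, 56 had a mean of at least 100 and 28 ranked among the 100 brightest genes, while Ndufa12 and Ndufs4 were below 20 on all arrays.

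Transport, fuel and calcium genes followed. Atp2a2, the calcium pump of the sarcoplasmic reticulum, had a mean of 3933 ± 658 and was among the less even of the bright genes, at 2785 on male sham 7 and 4952 on female sham 2. Mb, myoglobin, read 3890 ± 258. Slc25a4, which exchanges ADP for ATP across the inner mitochondrial membrane, read 3785 ± 420, and Ckmt2, the mitochondrial creatine kinase, 2232 ± 178. Lpl, the lipase that frees fatty acids from circulating lipoproteins, had a mean of 1990 ± 348. Hadhb, a subunit of the trifunctional protein of fatty acid oxidation, averaged 1424 ± 175, and Idh2, a mitochondrial isocitrate dehydrogenase, 1703 ± 90.4.

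Some bright probe sets carried names that another probe set of the same gene did not bear out. Sprr1b, known as a protein of the cornified envelope of skin, had a probe set at 2317 ± 210 and another with a mean of 19.4. Tyms-ps, a pseudogene, had 1 at 3274 ± 250 and another at 5.98. Of the 100 brightest probe sets, 82 were named with 1 symbol (80 genes), 25 of these had a further probe set of the same gene, and for 11 of the 25 a further one had a mean under 20. Among the 100, 16 carried the suffix of probe sets for which the manufacturer's design rules were relaxed, and 15 the suffix of gene families. The brightness of Sprr1b, Tyms-ps, Hoxa4 (798) and Sct (776), all from such relaxed-rule probe sets, is therefore given as that of a probe set and not of the gene.

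Signal was concentrated in few probe sets. The 10 brightest held 5.88% ± 0.17 of the summed intensity (SD, n = 9), the 100 brightest 22.1% ± 0.38 and the 1000 brightest 51.8% ± 0.74. By mean intensity, 905 probe sets (7.29% of all) held 50% of the signal.

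Split by function, oxidative phosphorylation held the largest share of the 16 lists, 6.27% ± 0.31 of the signal from 0.797% of the probe sets. Sarcomere and Z-disc genes held 5.85% ± 0.22 from 0.282% of the probe sets. Uptake and oxidation of fatty acids came next at 1.66% ± 0.06, then translation factors at 1.45% ± 0.04, cytosolic ribosome genes at 1.35% ± 0.10, and chaperones and protein turnover at 1.32% ± 0.05. Calcium cycling, pumps and channels held 1.06% ± 0.08, the tricarboxylic acid cycle with pyruvate entry 0.938% ± 0.047, and glycolysis with glycogen metabolism 0.931% ± 0.044. The neighbours in this order often overlapped: oxidative phosphorylation ranged from 5.94% to 6.91% and the sarcomere from 5.35% to 6.12%. The 16 lists together held 25.1% ± 0.73, named genes of no list 61.8% and probe sets without a single symbol 13.1%.

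**Figure D2:**
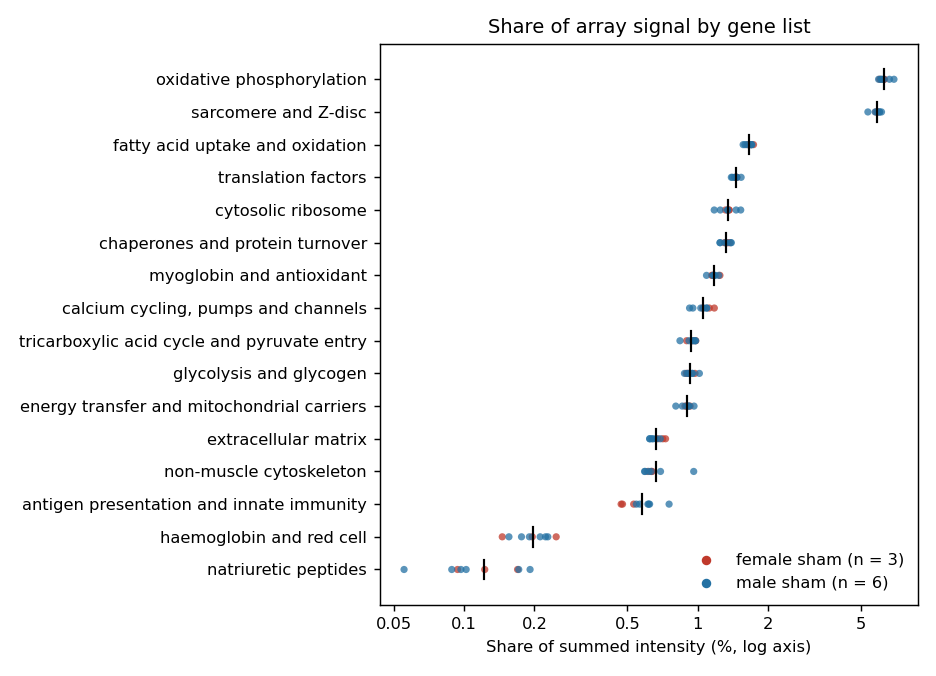
Share of the summed intensity of each array (%, log axis) held by 16 gene lists that do not overlap. Each dot is 1 array (red female, blue male) and each tick the mean of 9. Oxidative phosphorylation (6.27%) and the sarcomere (5.85%) stand far above the rest, male sham 9 is the high dot for the non-muscle cytoskeleton (0.961%), and the female dots lie below all male dots for antigen presentation.

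The largest lists differed between single male arrays. Male sham 7 had the lowest sarcomere share (5.35%), and 11 of 23 sarcomere probe sets with a mean of at least 100 had their lowest value there (47.8%, against 25.8% of all 1723 probe sets that bright). Myl3, Tnnt2 and Tnnc1 were below every other male array on it, whereas Myh6 was high there (5725). Male sham 8 had the highest share of oxidative phosphorylation (6.91%), with 41 of 62 such probe sets at their highest value on it (66.1%, against 21.0% of all), and the highest ribosome share (1.53%), with 13 of 22 highest on it. The 3′ to 5′ ratio of the Actb control probe sets ran from 0.390 (female sham 2) to 0.719 (male sham 8) and was 0.425 on male sham 7. That of Gapdh did not set these male arrays apart, with 0.787 on male sham 7 and 0.768 on male sham 8 (range 0.688 to 0.836). For both genes the 5′ probe set was the brighter on every array, so the ratios are not read here as RNA integrity. The part of RNA quality, of array brightness and of cell make-up in these differences was not tested. Without male sham 7 the sarcomere share was 5.91%, and without male sham 8 that of oxidative phosphorylation was 6.19%.

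Markers of other cell types held small shares of the signal. Fibroblast (0.201% of the probe sets), red cell (0.0886%) and skeletal muscle genes (0.153%) held more of the signal than of the probe sets. Endothelial (0.177%), macrophage and myeloid (0.177%) and smooth muscle and pericyte genes (0.0805%) held less. The 15 fibroblast genes held 0.348% ± 0.032 of the signal, led by Dcn, the matrix proteoglycan decorin (mean 835 ± 132), and the 15 endothelial genes 0.143% ± 0.011, led by Eng, the co-receptor endoglin (282 ± 36.5). Macrophage and myeloid genes held 0.107% ± 0.008, led by Cd74 (mean 155), the lipopolysaccharide co-receptor gene Cd14 (150.1) and the complement gene C1qc (104). Of its 16 genes, Adgre1, Mrc1, Fcer1g, Tyrobp and S100a8 were below 20 on all arrays. Red cell genes held 0.197% ± 0.034, led by Hba-a1, an alpha-globin gene (1085 ± 234), and Hbb-b2 (203 ± 65.8). Of 6 mesothelial genes none reached a mean of 100, and the same held for 8 genes of other tissues. Of those 8, Alb (albumin) and Scgb1a1 were below 20 on all arrays, whereas Ttr (transthyretin) read 65.5 to 114, Sftpc, a lung surfactant gene, 44.9 to 68.2 and Apoa1 24.1 to 43.6. Smooth muscle and pericyte genes held 0.056% ± 0.003 and skeletal muscle genes 0.241% ± 0.022, led by Acta1 (729 ± 129), which the heart also expresses. In tissue RNA, fewer cells of a type and less RNA per cell cannot be told apart.

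Genes that report the state of the tissue at sampling differed in brightness from list to list. A mean of at least 100 was reached by 13.9% of all probe sets. It was reached by 4 of 29 immediate early, 3 of 15 clock and 4 of 14 inducible heat shock probe sets. On the fasting, PPAR-alpha and glucocorticoid list it was reached by 5 of 22, and on the interferon response list by 0 of 23. Of 22 immediate early genes, which respond within minutes to stress, 4 had a mean of at least 100, with Btg2 the brightest (604 ± 84.5), and Fos, Myc, Egr2 and Klf6 were below 20 on all arrays. Of 20 interferon response genes none reached a mean of 100, and 8, among them Isg15, Mx1 and Cxcl10, were below 20 on all arrays. Inducible heat shock genes summed to 825 on male sham 7 and 1343 on male sham 5, with Hspd1, the mitochondrial chaperonin, at 351 ± 44.0. Of 13 clock and clock output genes 3 had a mean of at least 100, led by Per3 (182 ± 24.6), and 1 of the 16 genes of the fasting, PPAR-alpha and glucocorticoid list, Pdk4, reached an SD of 0.5 between arrays.

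Most probe sets varied little between sham arrays. Among the 1723 with a mean of at least 100, the standard deviation (SD) of log2 intensity over the 9 arrays had a median of 0.186, which is a factor of 1.14, and its 5th and 95th percentiles were 0.096 and 0.357. The steadiest named probe set was that of Stat3, a transcription factor activated by cytokine receptors, with an SD of 0.034 and values from 222 to 237. The bright Cox6c family probe set (0.051) and Myl2 (0.060) were both among the 10 steadiest. The 100 brightest probe sets had a median SD of 0.162, and 1 of them, that of Snrpb, reached 0.5.

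An SD of 0.5 was taken as the mark of a variable probe set. It was reached by 17 of the 1723 (0.987%), of which 15 had a single gene symbol, and the values next to the mark were 0.517 and 0.499. Of the 15, 5 (Myl4, Myl7, Mag, H2-D1 and Nppb) stayed at 0.5 or more whichever array was left out, and the other 10 fell below it without 1 array. Adh1, Dstn, Snrpb, Mrpl38 and Ror2 each had 1 array far from the rest. On male sham 9, Adh1, an alcohol dehydrogenase, read 1890 against at most 33.6 elsewhere, and Dstn, the actin-severing protein destrin, read 2536 against 94.6 to 146. On the same array a relaxed-rule probe set of Snrpb, a spliceosome core protein, was listed at 0 against 1566 to 1841. The other Snrpb probe set averaged 2.52, so these values are those of a probe set and not of the gene. Mrpl38, a mitochondrial ribosomal protein, read 37.4 on male sham 9 against 105 to 158. Ror2, a Wnt receptor, was low on male sham 4 alone (45.8 against 123 to 158), with an SD of 0.132 without that array. Adh1, Dstn, Snrpb and Mrpl38 fell to SDs of 0.265, 0.236, 0.075 and 0.190 without male sham 9, when 19 probe sets reached 0.5. Adh1 met the mean intensity required for this ranking only through its value on male sham 9. Its values elsewhere had a median of 6.24, and those below 20 were raised to 20. Its SD of 0.265 is thus largely set by that floor and is not a measure of a steady gene. B2m, Cd74 and Eif4e2 fell to 0.385, 0.396 and 0.351 without male sham 8, and Pdk4 and Mbp to 0.477 and 0.487 without female sham 2. The Dstn value also set the share of the non-muscle cytoskeleton on male sham 9, 0.961% against 0.592% to 0.693% on the other arrays. Without male sham 9 that share had a mean of 0.626% ± 0.032.

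**Figure D3:**
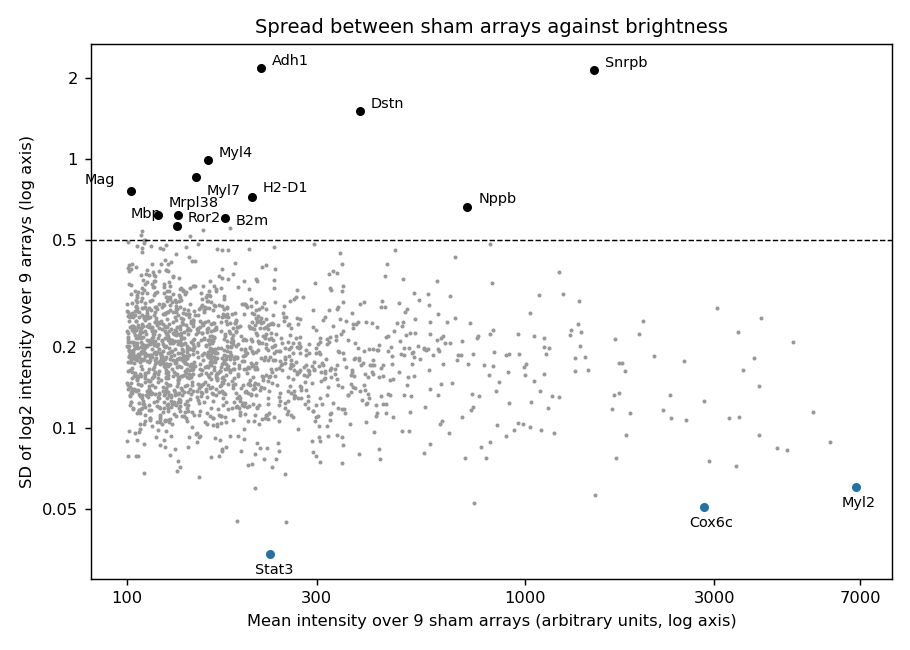
SD of log2 intensity over the 9 sham arrays against mean intensity (both axes log), 1 dot for each of 1723 probe sets with a mean of at least 100. The dashed line marks an SD of 0.5. Adh1 reached the required mean through male sham 9 alone. Named black dots are the 12 named genes of largest SD, led by Adh1 (2.17), Snrpb (2.13), Dstn (1.5), Myl4 (0.99) and Myl7 (0.85), and blue dots are 3 steady genes (Myl2, Cox6c and Stat3).

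Among the 15 were the atrial myosin light chains, a natriuretic peptide gene and genes of antigen presentation. The starts of Myl4, Myl7, Nppb, H2-D1 and B2m are shown here and below, because the descriptions that follow are largely of them. Those of Nppa, whose SD of 0.473 was just under the mark, and of H2-Q4, not among the 15, are added. Those of Cd74 and H2-K2 are not shown. Each sequence runs from 250 bases before to 50 after a RefSeq start site on the build GRCm38.p6, read 5′ to 3′ on the gene's strand. Nppa (chr4:148000472-148000771, plus strand), Nppb (chr4:147985650-147985949, plus strand), Myl7 (chr11:5898733-5899032, minus strand) and Myl4 (chr11:104550413-104550712, plus strand) form the first set, with capitals for matches on either strand to TATAAA, to GATAA (the core bound by GATA factors) and to the CArG box (the serum response element core).
Nppa: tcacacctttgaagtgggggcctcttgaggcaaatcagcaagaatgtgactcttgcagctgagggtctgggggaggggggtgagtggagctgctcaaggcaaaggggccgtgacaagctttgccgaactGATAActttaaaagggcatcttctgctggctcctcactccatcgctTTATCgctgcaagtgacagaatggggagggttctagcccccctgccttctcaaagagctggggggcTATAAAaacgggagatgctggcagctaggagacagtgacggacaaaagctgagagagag
Nppb: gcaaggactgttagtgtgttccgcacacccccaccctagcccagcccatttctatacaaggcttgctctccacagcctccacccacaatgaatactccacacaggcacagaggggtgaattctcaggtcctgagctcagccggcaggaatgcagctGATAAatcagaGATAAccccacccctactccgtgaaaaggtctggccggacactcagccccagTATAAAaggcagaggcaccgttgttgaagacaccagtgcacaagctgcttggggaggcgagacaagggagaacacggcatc
Myl7: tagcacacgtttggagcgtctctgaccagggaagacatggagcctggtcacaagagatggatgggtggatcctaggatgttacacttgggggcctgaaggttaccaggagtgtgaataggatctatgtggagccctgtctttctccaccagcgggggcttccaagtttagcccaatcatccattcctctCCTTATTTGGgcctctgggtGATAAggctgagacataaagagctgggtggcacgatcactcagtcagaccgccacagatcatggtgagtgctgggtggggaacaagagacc
Myl4: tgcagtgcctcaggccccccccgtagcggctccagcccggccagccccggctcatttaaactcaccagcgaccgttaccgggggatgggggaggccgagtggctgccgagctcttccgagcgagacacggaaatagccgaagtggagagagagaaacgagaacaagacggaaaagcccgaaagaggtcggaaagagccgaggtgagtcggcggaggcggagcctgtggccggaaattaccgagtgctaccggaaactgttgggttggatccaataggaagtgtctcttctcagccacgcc
The windows of Nppa and Nppb each held 1 TATAAA and 2 GATAA matches, that of Myl7 held 1 GATAA and 1 CArG box, and that of Myl4 none of these. Over all 32851 RefSeq windows of this length, 13.6% held TATAAA, 25.4% GATAA and 1.63% a CArG box. A match is a string of letters and not a measured site.

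Myl4 and Myl7, the light chains typical of atrial muscle, had the largest SDs after Adh1, Snrpb and Dstn, 0.99 and 0.85. Without male sham 5 they were 0.635 and 0.638, close to the lowest values that leaving out 1 array gave for a relaxed-rule probe set of Mag (0.654), a myelin protein gene whose other probe set averaged 4.60, and for H2-D1 (0.636). Myl4 read 239, 148 and 244 on the female arrays and 31.3, 116 and 269 as the lowest, median and highest of the male arrays. Myl7 read 217, 138 and 210 on the female arrays and 42.2, 117 and 257 likewise on the male arrays. Both were lowest on male sham 5, next lowest on male sham 4 and highest on male sham 8, and the sexes overlapped. A second Myl4 probe set had the same low arrays, with 19.9 on male sham 5 and 30.1 on male sham 4 against 55.7 to 161 elsewhere.

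Nppb and Nppa, which encode the natriuretic peptides released by stretched heart muscle, varied too. Nppb read 683, 1072 and 522 on the female arrays and 326, 549 and 1228 as the lowest, median and highest male values, with an SD of 0.66. Nppa read 257, 292 and 243 on the female arrays and 111, 217 and 307 likewise on the male arrays, with an SD of 0.47. Male sham 5 was again lowest for both, and male sham 8 and 9 were the 2 highest arrays for each. Together with Nppc the 2 genes held 0.121% ± 0.046 of the signal, from 0.055% on male sham 5 to 0.192% on male sham 9.

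Of 12 listed gene pairs, 7 allowed a correlation of log2 intensity across the 9 arrays, and 3 of the 7 passed. The light chains were not tested against the natriuretic peptides. Each of the 7 was tested by an exact permutation test (two-sided) with Benjamini-Hochberg adjustment over the 7. Myl7 and Myl4 had r = 0.985 (p = 2.205e-05, adjusted p = 0.000154) and Spearman's rho = 0.967 (exact p = 0.000165). Without the 2 arrays farthest from the median in Myl7, male sham 5 and 4, r was 0.985, and within the 6 male arrays it was 0.981 (exact p = 0.00556). Nppa and Nppb had r = 0.828 (exact p = 0.00234, adjusted p = 0.00818) and rho = 0.867, with r = 0.949 without male sham 5 and 7 and r = 0.855 within the male arrays (exact p = 0.0333).

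The atrial list behind these light chains had 8 measured genes, whose summed intensity ran from 247 (male sham 5) to 899 (male sham 8). Apart from Myl4, Myl7 and Nppa, which the ventricle can also express, its members were dim. Sln, the atrial calcium pump regulator sarcolipin, read at most 21.4, and Bmp10 and Nr2f2, atrial-enriched genes, were below 20 on all 9 arrays. The part of atrial tissue in the spread of Myl4 and Myl7 was not tested further.

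**Figure D4:**
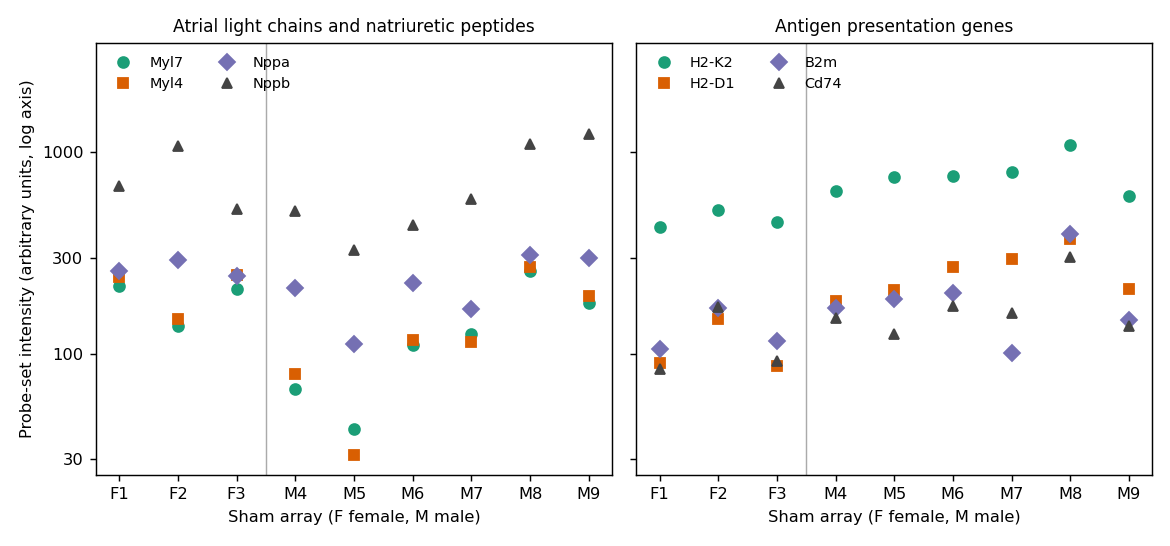
Intensity (arbitrary units, log axis) of 4 genes per panel on each sham array, female 1 to 3 (F) left of the grey line and male 4 to 9 (M) right of it. Left, Myl7, Myl4, Nppa and Nppb are all lowest on male sham 5, where Myl4 reads 31.3. Right, H2-K2, H2-D1, B2m and Cd74 are all highest on male sham 8, where H2-D1 reads 372 and B2m 394.

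Genes that present antigens to T cells were also variable, and several of them had separate female and male values. Class I molecules such as those of H2-D1 and H2-Q4 pair with the light chain encoded by B2m, and class II molecules are escorted by the invariant chain, Cd74. H2-D1 (chr17:35262844-35263143, plus strand), H2-Q4 (chr17:35379367-35379666, plus strand) and B2m (chr2:122147437-122147736, plus strand) are shown with capitals for TATAAA and TTTCNNTT (the core of interferon-stimulated elements) on either strand.
H2-D1: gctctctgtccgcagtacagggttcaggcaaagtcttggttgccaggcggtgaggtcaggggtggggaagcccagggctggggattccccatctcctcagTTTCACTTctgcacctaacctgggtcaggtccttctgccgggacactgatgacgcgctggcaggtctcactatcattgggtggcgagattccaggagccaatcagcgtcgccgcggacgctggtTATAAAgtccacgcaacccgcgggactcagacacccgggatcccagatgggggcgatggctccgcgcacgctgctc
H2-Q4: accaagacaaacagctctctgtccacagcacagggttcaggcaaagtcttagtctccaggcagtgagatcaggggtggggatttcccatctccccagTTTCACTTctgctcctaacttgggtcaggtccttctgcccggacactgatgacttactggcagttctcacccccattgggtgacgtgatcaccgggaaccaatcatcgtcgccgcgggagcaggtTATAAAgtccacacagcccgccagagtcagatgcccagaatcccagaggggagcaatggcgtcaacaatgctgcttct
B2m: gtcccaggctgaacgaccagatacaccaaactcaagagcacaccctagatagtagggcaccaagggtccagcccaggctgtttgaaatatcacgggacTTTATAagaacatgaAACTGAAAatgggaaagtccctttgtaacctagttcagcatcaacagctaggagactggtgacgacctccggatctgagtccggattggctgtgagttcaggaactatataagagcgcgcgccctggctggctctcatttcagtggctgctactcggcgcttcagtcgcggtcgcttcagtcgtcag
All 3 windows held 1 match to each, and the TATAAA of B2m was on the other strand. TTTCNNTT was in 23.9% of all windows.

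H2-D1 read 90, 148 and 87.1 on the female arrays and 182, 239 and 372 as the lowest, median and highest male values, so the sexes did not overlap. H2-K2, another class I gene, read 423, 519 and 449 on the female arrays and 604, 754 and 1081 on the male arrays, again without overlap. B2m read 105, 169 and 116 on the female arrays and 101, 177 and 394 on the male arrays, with overlap. Male sham 8 was the highest array for all 3. Cd74 read 84.3, 171 and 92.2 on the female arrays and 125, 154 and 302 on the male arrays, and it followed the class II gene H2-Aa with r = 0.877 (exact permutation p = 0.00692, adjusted p = 0.0162) and rho = 0.783. That r was 0.786 without male sham 8 and female sham 1, and 0.921 within the male arrays (exact p = 0.0694). Class I probe sets are often shared between near-identical genes, so the single gene behind a signal is uncertain.

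The other 4 pairs did not pass the test. Mt1 and Mt2, the metallothioneins, had r = 0.2 (exact permutation p = 0.607), and Pdk4 and Angptl4, both targets of the fatty acid sensor PPAR-alpha, r = 0.244 (p = 0.522). For the heat shock genes Hspa8 and Hsph1 r was 0.409 (exact p = 0.287). Acta1, skeletal alpha-actin, and the Myh7 family probe set had r = -0.672 (exact p = 0.0482, adjusted p = 0.0843), and r = 0.242 without female sham 2 and 1, so that relation rested on those arrays.

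Other genes among the 30 of largest SD had high or low arrays of their own. Pdk4, the kinase that holds back pyruvate oxidation, read 86.1, 178 and 83.7 on the female arrays and 61.3, 91.0 and 171 as the lowest, median and highest male values. Txnip, a thioredoxin inhibitor induced by glucose, read 594 on male sham 7 and 186 to 316 on the others, although its second probe set, with a mean of 55.8, was not high there (54.7). Mbp, a myelin protein, ran from 60.02 on male sham 7 to 269 on female sham 2, while its second probe set was below 20 on all arrays. Hbb-b2, a beta-globin gene, ran from 123 (male sham 7) to 335 (female sham 3), and Hba-a1 was also highest on female sham 3 (1432).

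The data allowed a pair of checks of whether a variable probe set was variable elsewhere. The 30 probe sets of largest SD in the 6 male arrays had a median SD of 0.181 in the 3 female arrays, against 0.141 for all 1706 compared. Of the 30, 18 lay above that median and 10 in the highest 10% of female SDs, among them Myl4, Myl7, Nppb and B2m. Adh1 was also among the 10, although it read at most 33.6 outside male sham 9 and met the required mean through that array alone. Snrpb, Dstn, Mrpl38 and Nppa lay below the median, at percentiles 22.5, 39.9, 14.3 and 46.1 of the female SDs. A high female SD therefore need not repeat what made a probe set variable in the male arrays. For 84 genes with 2 or more bright probe sets, the median correlation between probe sets over the arrays was 0.205 for all 96 pairs and 0.476 for the 24 pairs with the larger SDs (at least 0.277). These 24 ran from -0.822 for Rtn3 and -0.795 for Car4 to 0.950 for a pair of Ptgds, a prostaglandin D synthase, whose other pairs had 0.767 and 0.701, and H2-D1 had 0.806.

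Between the female and male arrays, some X-linked, class I and fibroblast genes had values that did not overlap. The lists behind them were chosen with earlier results of these data known, so groups are described here and not ranked. No probe set passed the test across all probe sets tested. The female arrays all have lower title numbers than the male arrays, and the labels give no strain, age or genotype. A difference of strain, age or processing between these arrays could therefore not be told apart from sex and was not tested. In limma, on log2 intensity with values below 20 raised to 20, 0 of the 7453 brighter probe sets reached an adjusted p of 0.05 (0% called). At an unadjusted p under 0.05 there were 427, of which 314 (4.21% of those tested) were higher and 113 (1.52%) lower in the female arrays, where 373 of either direction would be expected if no probe set differed. After quantile normalization of the arrays that split was 200 higher and 193 lower, so the excess of higher values depended on the scaling. The female and male values did not overlap for 211 (2.83%). The median female minus male difference of all probe sets was 0.05 on the log2 scale, and the median intensity per array was 25.7 to 26.4 in females and 23.7 to 25.8 in males (exact permutation p = 0.0714, adjusted p = 0.429 over 6 array measures).

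Xist, the RNA that silences 1 X chromosome in female cells, read 31.2 to 36.3 on the female arrays and at most 3.33 on the male arrays, at least 1.65-fold higher against the background level of 20. The labelled sexes were thus borne out on all 9 arrays. Ddx3x, an X-linked RNA helicase gene that escapes silencing, read 156, 173 and 141 on the female arrays and 74.4, 83.9 and 102 as the lowest, median and highest male values, a difference of 0.88 ± 0.14 (log2 ± SE, limma adjusted p = 0.0685). Eif2s3x, a translation factor gene that also escapes, had a difference of 0.64 ± 0.16 (limma adjusted p = 0.569) without overlap. Kdm6a, a histone demethylase gene of the same kind, read 22.7, 29.4 and 30.2 against 9.73, 16.4 and 23.5. Usp9x, another X-linked gene, had a smaller difference of 0.24 ± 0.15 (limma adjusted p = 0.899), with overlap. The Y-linked genes Eif2s3y, Kdm5d and Uty were below 20 on all arrays, the male ones included.

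Outside that list, the smallest p-values belonged to Hccs and Cmtm8. Hccs, an X-linked gene for the enzyme that attaches haem to cytochrome c, was lower in females, at 44.0, 47.9 and 48.8 against 70.6, 80.4 and 94.1, a log2 difference of -0.79 ± 0.13 (limma adjusted p = 0.0685). Cmtm8 was higher in females, at 53.6, 62.8 and 57.3 against 30.5, 34.7 and 37.6, a difference of 0.74 ± 0.12 (limma adjusted p = 0.0685). Trav9d-3, a T cell receptor segment measured by a family probe set, had a difference of 1.1 ± 0.21 (limma adjusted p = 0.187).

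Antigen presentation genes had lower values in the female arrays, none past the adjusted threshold. H2-D1 had a log2 difference of -1.24 ± 0.23 (limma adjusted p = 0.176), H2-Q4 of -0.71 ± 0.16 (limma adjusted p = 0.438) and H2-K2 of -0.71 ± 0.17 (limma adjusted p = 0.561). Of 34 probe sets of H2 genes and B2m tested, 26 were lower in females (76.5%, against 39.3% of all tested), with a median difference of -0.23, and 5 did not overlap (14.7%, against 2.83%). H2-M2 was among the 5 and was higher in females (0.30 ± 0.16, limma adjusted p = 0.875). On the antigen presentation and innate immunity list, 10 of 45 tested probe sets (22.2%) were lower in females at an unadjusted p under 0.05, against 1.52% of all. The share of signal of that list was 0.470% to 0.532% on the female arrays and 0.546% to 0.754% on the male arrays, without overlap. The summed share of macrophage and myeloid markers, several of which lie on the same list, was also lower, 0.091% to 0.105% against 0.107% to 0.119%. Cd74, the brightest of them and on both lists, averaged 116 on the female and 174 on the male arrays. Of the 11 macrophage and myeloid probe sets tested, 7 were lower in females, against 39.3% of all tested. At an unadjusted limma p under 0.05, 2 of the 11 were lower, against 1.52% of all. The lower share thus did not extend to every member. For 0 of the 11 were the female and male values without overlap. With 2.83% of all without overlap, that count says little about so short a list. The part of macrophages in the lower class I signal was not tested.

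**Figure D5:**
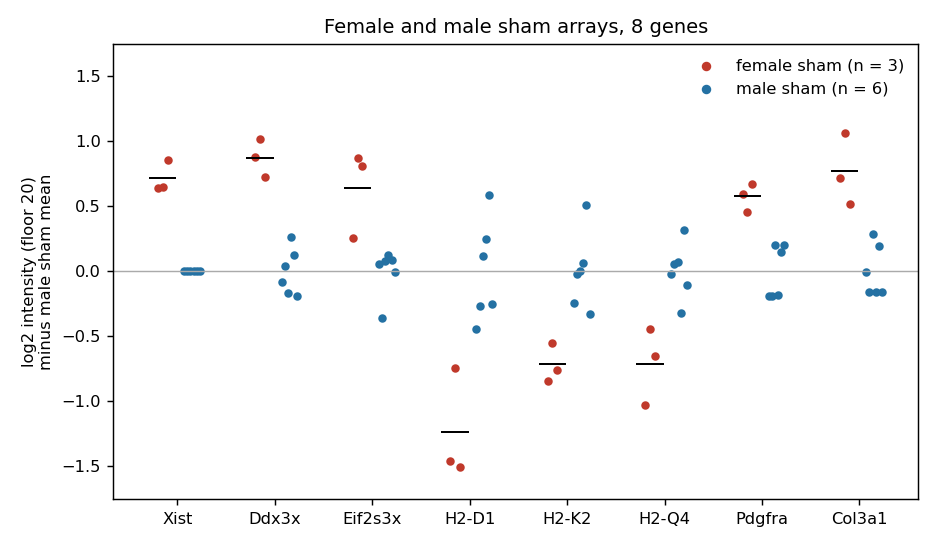
log2 intensity, with values below 20 raised to 20, relative to the mean of the male sham arrays for 8 genes. Red dots are 3 female arrays with their mean as a black bar, and blue dots 6 male arrays. Xist, Ddx3x, Eif2s3x, Pdgfra and Col3a1 lie above all male dots in females and H2-D1, H2-K2 and H2-Q4 below them, and none of the 8 passed adjustment over 7453 probe sets.

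Part of the fibroblast and matrix lists had higher values in the female arrays, and no member passed the adjusted threshold. Of 21 fibroblast probe sets tested, 10 (47.6%) were higher in females at an unadjusted p under 0.05, against 4.21% of all. Values of the sexes did not overlap for 8 of the 21, against 2.83% of all, with Fbln1 counted more than once. Some genes have several probe sets among the 21. With 1 probe set per gene, 7 of 14 were higher at that p (50%, against 4.24% of all). The fibroblast, matrix and antigen presentation lists were chosen with earlier results of these data known. These counts therefore describe the values and are not a test of the lists. After quantile normalization 9 of the 21 were higher (42.9%, against 2.68% of all), and 13 of 45 antigen presentation probe sets were lower (28.9%, against 2.59% of all). The median difference of the 21 was 0.35, against 0.05 for all tested. Col3a1, the collagen III chain, read 32.1 to 46.9 on the female arrays and 11.6 to 27.4 on the male arrays, a difference of 0.77 ± 0.16 (limma adjusted p = 0.258). Pdgfra, the receptor that marks cardiac fibroblasts, read 31.4 to 36.4 against 17.8 to 26.3 (0.58 ± 0.15, limma adjusted p = 0.561). Gsn, the actin-severing protein gelsolin, read 508 to 617 against 267 to 485 (0.53 ± 0.18, limma adjusted p = 0.864). Thy1, a surface protein of fibroblasts, read 110 to 122 against 70.6 to 102. These 4 were named after their values were seen.

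Other members of the fibroblast list did not follow. Dcn, its brightest gene, read 942, 824 and 867 on the female arrays and 636, 780 and 1050 as the lowest, median and highest male values. A relaxed-rule probe set of Fbln1 was lower in females (-0.42 ± 0.15, limma adjusted p = 0.864) while 2 others of that gene were higher (0.53 ± 0.18 and 0.41 ± 0.17). On the extracellular matrix list, which shares genes with the fibroblast list, 11 of 53 probe sets (20.8%, against 4.21% of all) were higher in females at an unadjusted p under 0.05, with a median difference of 0.12. The fibroblast share of signal was 0.370% to 0.397% on the female arrays and 0.305% to 0.365% on the male arrays, without overlap. Such a sum is weighted to its brightest members. Dcn overlapped, and the separation leaned on Gsn, with a mean of 558 on the female and 391 on the male arrays. It is therefore not a property of the whole list. The fibroblast count of 10 stayed between 8 and 11 when any array except female sham 3 was left out. Without that array it was 5 of 21 (23.8%), and the matrix count was 4 of 53 (7.55%), against 2.925% of all. Of 17 endothelial probe sets, 1 (5.88%) was higher at that p, near the 4.21% of all.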

How the data were processed

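The authors deposited 1 linear intensity per probe set and array. Their software, background correction and scaling were not given in the sources used here. Probe sets were named through GEO's platform annotation, with symbols updated through RefSeq (10817 matched). The 9 sham columns were used as deposited. For spread and tests, values below 20 were raised to 20 and log2 was taken. Shares are percentages of each array's summed intensity over 12422 probe sets, control probe sets left out. Spread was the SD of log2 over 9 arrays for probe sets with a mean of at least 100.

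Female (n = 3) and male (n = 6) sham arrays were compared with limma 3.58.1 (lmFit and eBayes, Benjamini-Hochberg adjustment) in R 4.3.3 on the 60% brightest probe sets, after a test of the script on simulated data. Single values used an exact permutation test over 84 splits. Other steps ran in Python 3.11.15 with pandas 2.3.3, numpy 2.4.6 and scipy 1.17.1. The number of arrays limits the precision. Alternatives were other scalings, floors, filters, measures of spread, 1 probe set per gene, array weights and each array left out.

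The text names the 30 brightest genes, up to 5 of each function list, the 30 of largest and 10 of smallest SD, the 6 of smallest p between the sexes, a list of sex chromosome genes, fixed pairs and up to 4 examples of each marker or state list; a few are described singly. The members, 16 function lists, 14 marker lists and 7 state lists were chosen with earlier results of these data known.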

Additional observations from a re-analysis of the deposited data

Results flagged for a closer look

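Among the 6 male sham arrays, 117 values named here were tested for an array set apart from the rest by Dixon's criterion, and 19 met it. Chance alone flags about 1 in 20 groups, but these values include the 30 probe sets of largest SD, so the count cannot be set against that share. Male sham 9 had 6: it was highest for the share of the non-muscle cytoskeleton (0.961%), Adh1 (1890), Dstn (2536) and Nipsnap2 (1601), and lowest for Snrpb (0) and Mrpl38 (37.4). Male sham 7 had 5, being lowest for Myl3 (3323), Slc25a4 (2716), Tnnt2 (2787), Tnnc1 (1523) and Rpl41 (1160). Male sham 8 had 4: highest for the share of antigen presentation (0.754%), Cd74 (301.7) and Kdm6a (23.5), and lowest for Sult1b1 (55.3). Male sham 4 was lowest for Cox6c (2672) and Ror2 (45.8), male sham 5 for Eif2s3x (55.6), and male sham 6 for Col1a1 (65.5). Values below 20 were raised to 20 in this comparison.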

How the results depend on the processing

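The female against male count of 0 became 2 with no filter on dim probe sets (Xist and Kazald1), 3 on the 40% brightest (Ddx3x, Hccs and Cmtm8), and 4 with array weights or with 1 probe set per gene (Xist, Ddx3x, Hccs and Cmtm8); it was 0 under the other settings and without any 1 array. The direction of these 4 genes and of H2-D1 was the same in each setting that tested them. The 17 probe sets with an SD of at least 0.5 became 10 with log2 of intensity plus 20, 63 at a mean of at least 50 and 5 at a mean of at least 200, and 19 to 24 with an array left out. With intensities under 20 set to 0, the sarcomere share was 6.20%, that of oxidative phosphorylation 6.64% and that of the 100 brightest 23.4%, which was 23.6% with 1 probe set per gene. Leaving out each array gave 5.81% to 5.91%, 6.19% to 6.32% and 22.01% to 22.2%. Of the other 14 lists, 6 moved by more than 1 SD under each of these 2 settings and none under the rest. Counts chosen after seeing the data were, over all settings, 5 to 11 fibroblast, 4 to 14 matrix and 6 to 13 antigen presentation probe sets. Of all probe sets tested, 2.39% to 5.69% were higher and 0.91% to 2.64% lower in females by the same unadjusted limma criterion. Signal below 20 is not told apart from background, which leaves the dimmer genes without a level. No paired analysis was possible because the female and male sham titles share no replicate numbers.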
